A study of Mus musculus with 22 samples.

Results

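Immediate early genes are switched on in neurons within minutes of excitation, and 10 of them, Fos, Fosb, Junb, Egr1, Egr2, Egr3, Egr4, Arc, Npas4 and Nr4a1, were followed in hippocampal RNA of TgproNGF#3 mice and of wild-type controls (WT). They were taken as every non-control probe whose RefSeq transcript belongs to 1 of the 10 genes, of 21176 genes with a symbol on the array, and each gene had 1 probe. TgproNGF#3 mice carry a mouse pre-proNGF transgene that furin cannot cleave, followed by an IRES and EGFP, under the Thy1.2 promoter, which drives it in neurons of the brain. They represent 1 founder line, and WT mice of the same C57Bl/6xDBA/2 background without the transgene were the controls. Untreated mice gave total RNA of the right hippocampus, 1 mouse per array, and each genotype was represented by 4 mice of 1 month, 4 of 3 months and 3 of 12 months. Males were used for the younger ages, and females at 12 months. Since a slide held the arrays of 1 age, the effects of age, slide and sex cannot be told apart, and genotypes are compared only within an age.

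Immediate early genes are transcribed without the need for new protein synthesis, when calcium and kinase signals reach transcription factors such as CREB, SRF and MEF2 that already sit at their promoters. Most of their products are themselves transcription factors that pass the signal on to later genes, while Arc acts at synapses. In the hippocampus they are standard markers of recent neuronal activity, and their RNAs are short-lived.

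Levels are given as the background-subtracted Cy3 intensity of the probe on the log2 scale, relative to the 75th percentile of its array, so that 0 is the 75th percentile, and a Log2 FC is the mean level in TgproNGF#3 minus that in WT. As in the methods of the study, a gene was called where limma gave an unadjusted p below 0.05 and the Log2 FC was over 1 in size. Adjusted p-values are Benjamini-Hochberg values over every probe tested at that age. Of the 10, 9 genes were well above background on 22 of 22 arrays. The probe of Egr3 was so on 10 of 22. Between 57.6% and 80.3% of probes were well above background on an array, the lowest share being that of TgproNGF#3 replicate 4 of 3 months. The RNA of a whole hippocampus was measured, so that fewer active cells and less RNA per cell cannot be told apart. The tissue was checked against its neuronal markers, with 8 of 8 granule neuron markers and 8 of 8 pyramidal neuron markers well above background on every array.

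The RefSeq promoter table (GRCm38.p6) held windows of 250 bases before to 50 after the start site for 7 of the 10 genes, and their bases are shown because these genes share short elements through which neuronal activity is known to act. Capitals mark TGACG, the short form of the cAMP response element bound by CREB (CGTCA when read from the opposite strand), the CArG box bound by SRF, and GCGGGGGCG, a site of the early growth response factors (CGCCCCCGC from the opposite strand). Before the start sites of Fos (chr12:85473690-85473889, plus strand), Egr4 (chr6:85513590-85513789, minus strand) and Junb (chr8:84978749-84978948, minus strand) the last 200 bases read as follows.
Fos: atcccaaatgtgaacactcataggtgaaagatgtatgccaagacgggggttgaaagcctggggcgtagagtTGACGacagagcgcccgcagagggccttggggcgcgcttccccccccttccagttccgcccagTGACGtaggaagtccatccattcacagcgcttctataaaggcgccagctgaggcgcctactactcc
Egr4: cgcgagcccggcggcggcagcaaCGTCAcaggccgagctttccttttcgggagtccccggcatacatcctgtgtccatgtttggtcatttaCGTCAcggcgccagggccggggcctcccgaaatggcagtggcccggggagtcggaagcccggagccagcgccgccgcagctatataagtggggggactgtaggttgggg
Junb: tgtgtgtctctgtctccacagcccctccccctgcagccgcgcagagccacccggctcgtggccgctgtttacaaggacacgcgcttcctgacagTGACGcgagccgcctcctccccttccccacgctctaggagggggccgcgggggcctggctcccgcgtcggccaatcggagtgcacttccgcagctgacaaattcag

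For 4 other members 30 bases around the elements are given. They lie at chr10:67537792-67537821 on the plus strand for Egr2, which has 5 start sites in the table, at chr7:19310082-19310111 on the minus strand for Fosb, at chr19:4990123-4990152 on the minus strand for Npas4 and at chr15:101266775-101266804 on the plus strand for Nr4a1.
Egr2: tcagtCCATATATGGgcagcgaCGTCAcgg
Fosb: tgcgggTGACGcaagcGCGGGGGCGggtcc
Npas4: gaCGTCAcgggaTGACGtcggaagtctggg
Nr4a1: tgCGTCAgtggCGCCCCCGCccctctccat

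The short form TGACG was found on either strand in the windows of 7 of 7 members, against 23% of 27025 genes in the table. In Fos it lay at -129 to -125 and at -66 to -62 from the start site, and in Npas4 both copies, at -179 to -175 and -169 to -165, lay within the stretch shown. The CArG box was found in 1 of 7 members, Egr2, where it lay at -72 to -63 in the window shown, and in 1.81% of all genes. GCGGGGGCG was found in 2 of 7 members, Fosb and Nr4a1, and in 3.31% of all genes. The whole cAMP response element TGACGTCA (2.03% of all genes), the AP-1 site TGANTCA (8.97%), GCGTGGGCG (0.707%) and the MEF2 site (0.636%) were found in 0 of 7. TGACG forms part of TGACGTCA, and the genes with several start sites were counted once if any window held the element. These are matches of letters in short windows, and a missing match says only that these letters are not in them.

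At 3 months all 9 genes that could be tested were lower in TgproNGF#3 than in WT mice. Of these, 5 were called down-regulated, Egr2, Junb, Fosb, Egr4 and Fos, and none was called up-regulated. Over all 33593 probes tested at this age 6.12% were called down-regulated and 0.643% up-regulated. The median Log2 FC of the 9 genes was -1.20, and that of the 15756 genes tested was -0.05. The adjusted p was below 0.05 for 3 of the 9, Egr4, Egr2 and Egr1, against 8.43% of all probes. At 1 and 12 months none of the genes was called.

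**Figure D1:**
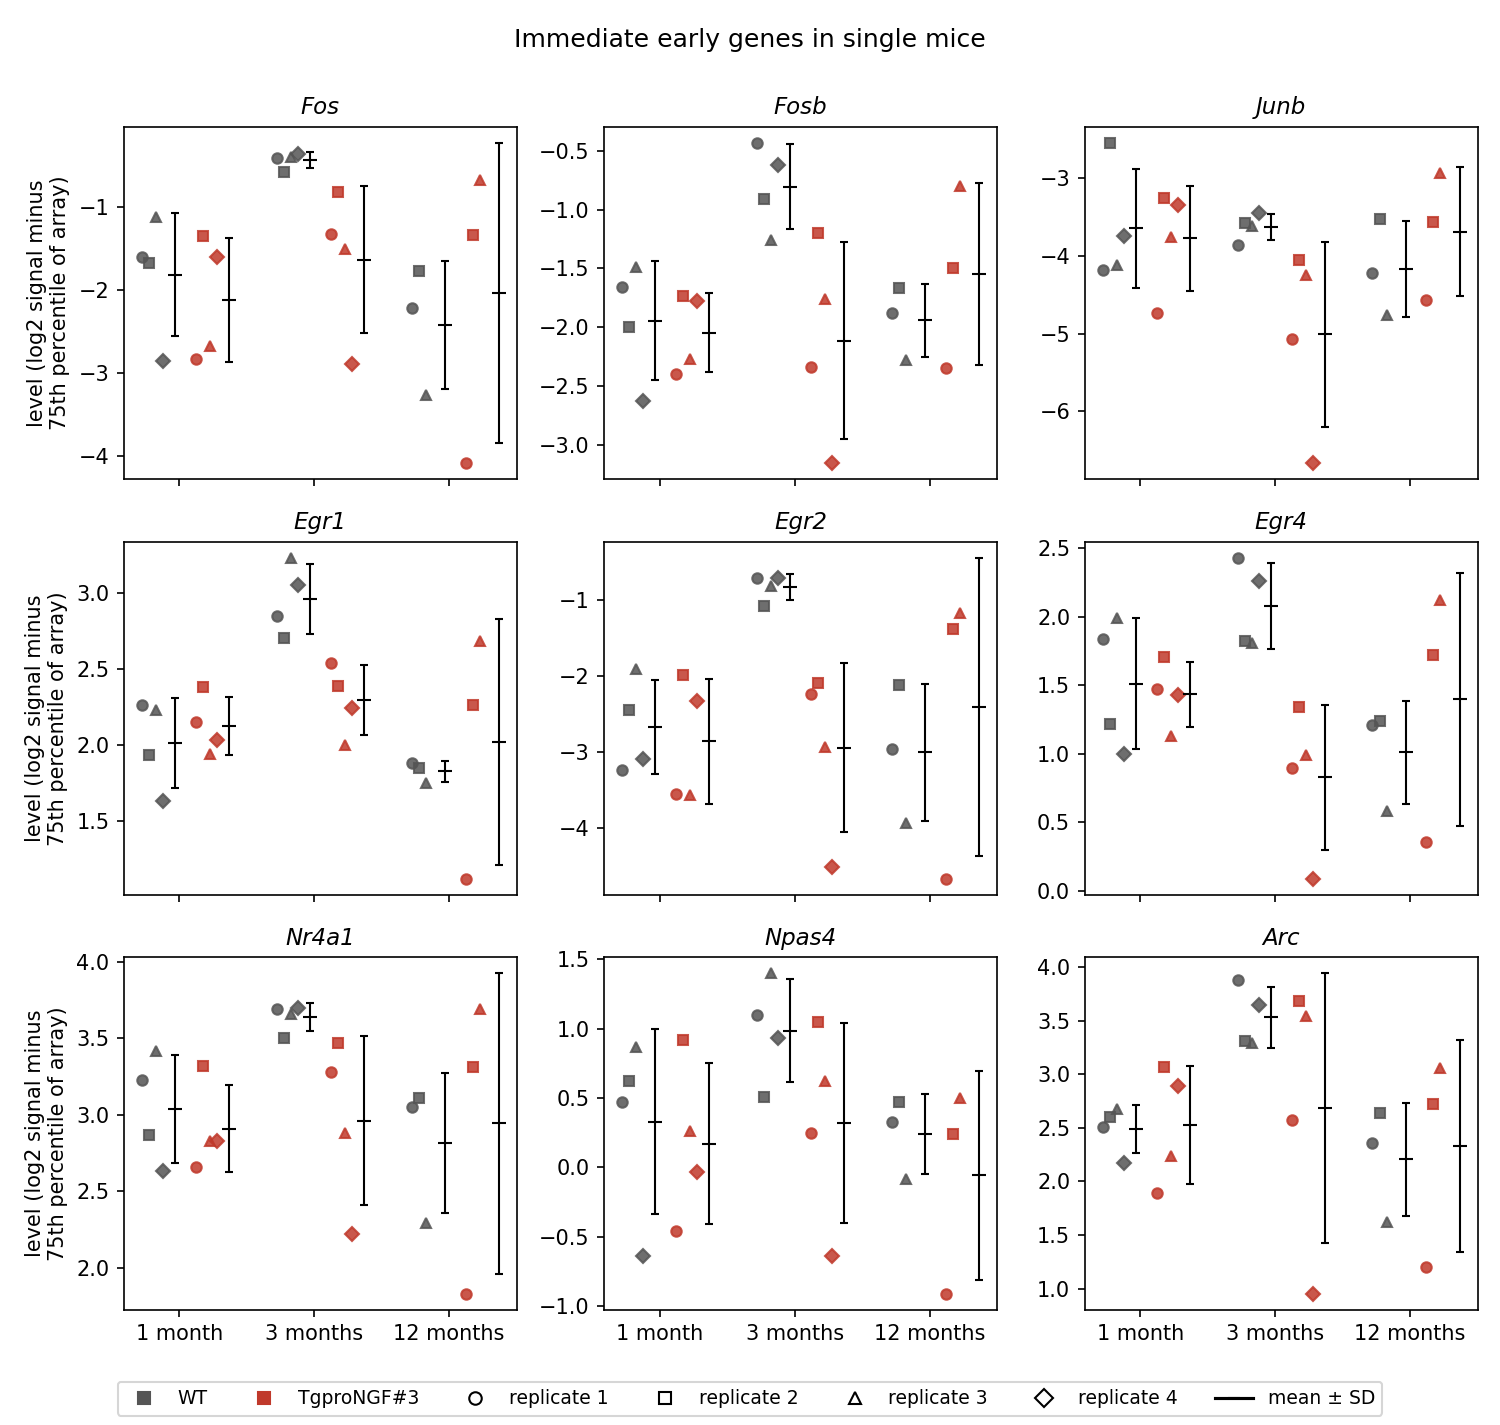
Level of each of the 9 genes measured on all arrays (y axis, log2 intensity relative to the array's 75th percentile; the scale differs between panels) in every mouse by age (x axis). Grey symbols are WT and red symbols TgproNGF#3, the shape gives the replicate number, and black bars are mean ± SD. At 3 months the WT mice lie close together and above most TgproNGF#3 mice. TgproNGF#3 replicate 4 of 3 months lies lowest of its group in all panels but that of Egr1. TgproNGF#3 replicate 1 of 12 months lies lowest of its group in every panel.

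Egr2 (probe A_55_P2033362), also known as Krox-20, is a zinc finger transcription factor that is also needed for myelination by Schwann cells. At 3 months its level was -2.23, -2.09, -2.94 and -4.52 in the 4 TgproNGF#3 mice and -0.71, -1.07, -0.81 and -0.70 in the 4 WT mice. The groups did not overlap, and replicate 4 lay furthest down. The Log2 FC was -2.12 (SE 0.463, limma adjusted p = 0.025), a 4.35-fold lower level. Egr2 had the largest Log2 FC in size of the 9 genes at this age.

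Egr4 (probe A_51_P270426) encodes another zinc finger factor of the same family. In TgproNGF#3 mice of 3 months its level was 0.90, 1.34, 0.99 and 0.09, and in WT mice it was 2.43, 1.82, 1.81 and 2.26. Again the highest TgproNGF#3 mouse lay below the lowest WT mouse. The Log2 FC was -1.25 (SE 0.269, limma adjusted p = 0.0236), or 2.38-fold lower.

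Egr1 (probe A_51_P367866), also known as Zif268, is the member of the family most used as a marker of synaptic plasticity. Its level was 2.54, 2.39, 2.00 and 2.24 in TgproNGF#3 and 2.85, 2.70, 3.23 and 3.05 in WT mice. The groups were apart, and replicate 4 was not the lowest mouse here. With a Log2 FC of -0.66 (SE 0.172, limma adjusted p = 0.0459) it passed the adjusted p but not the fold threshold of a call.

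Fos (probe A_52_P262219) is the founding early gene and dimerises with Jun proteins to form AP-1. Its level was -1.32, -0.82, -1.50 and -2.89 in TgproNGF#3 mice and -0.41, -0.58, -0.39 and -0.36 in WT mice of 3 months. The WT mice spanned a narrow range, with an SD of 0.1, and the TgproNGF#3 mice a wide one, with an SD of 0.887. The Log2 FC was -1.20 (SE 0.373, limma adjusted p = 0.0776), or 2.3-fold lower, and the groups did not overlap. This probe is printed on 10 spots of each array, which were averaged.

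Fosb (probe A_55_P2113051), whose product is another AP-1 partner known to build up as a truncated form after repeated stimulation, stood at -2.34, -1.20, -1.76 and -3.16 in TgproNGF#3 and at -0.43, -0.91, -1.26 and -0.62 in WT mice. A single TgproNGF#3 mouse, replicate 2, lay just above the lowest WT mouse. The Log2 FC was -1.31 (SE 0.381, limma adjusted p = 0.0633), or 2.49-fold lower. The array does not separate the full-length from the truncated form.

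Junb (probe A_55_P2011106) encodes the Jun protein that pairs with Fos and Fosb. It stood at -5.07, -4.05, -4.25 and -6.67 in TgproNGF#3 and at -3.86, -3.58, -3.61 and -3.45 in WT mice. The groups did not overlap, although TgproNGF#3 replicate 2 came close to the lowest WT mouse. The Log2 FC was -1.38 (SE 0.493, limma adjusted p = 0.11), or 2.61-fold lower. With the normexp background correction it was -0.96, and Junb was no longer called.

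Nr4a1 (probe A_51_P239654), an orphan nuclear receptor also known as Nur77, stood at 3.28, 3.47, 2.88 and 2.22 in TgproNGF#3 and at 3.69, 3.50, 3.66 and 3.70 in WT mice. The groups were apart by a small margin. The Log2 FC of -0.68 (SE 0.25, limma adjusted p = 0.119) was below the fold threshold, and it was -0.43 without TgproNGF#3 replicate 4.

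Npas4 (probe A_55_P1975215), a factor induced by calcium entry that shapes inhibitory synapses, and Arc (probe A_55_P2021810), which encodes a synaptic protein that promotes removal of glutamate receptors, showed overlapping groups. Npas4 stood at 0.25, 1.05, 0.62 and -0.64 in TgproNGF#3 and at 1.10, 0.51, 1.40 and 0.93 in WT mice, with a Log2 FC of -0.66 (95% confidence interval -1.43 to 0.10, limma adjusted p = 0.244). Arc stood at 2.57, 3.68, 3.54 and 0.95 in TgproNGF#3 and at 3.88, 3.31, 3.29 and 3.64 in WT mice, with a Log2 FC of -0.85 (95% confidence interval -2.03 to 0.34, limma adjusted p = 0.33). For Arc 2 of the 4 TgproNGF#3 mice lay inside the WT range. Without replicate 4 the Log2 FC was -0.34 for Npas4 and -0.27 for Arc, and without TgproNGF#3 replicate 2 it was -1.18 for Arc, which was then called down-regulated.

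In 6 of the 9 genes, Fos, Junb, Egr1, Egr2, Egr4 and Nr4a1, every TgproNGF#3 mouse of 3 months lay below every WT mouse, which held for 14.6% of all probes. For each of the 6 the exact two-sided permutation p was 0.029, the smallest that 4 against 4 mice can give. It was 0.057 for Fosb, 0.17 for Npas4 and 0.31 for Arc. TgproNGF#3 replicate 4 was the lowest mouse of its group in 8 of 9 genes, all but Egr1. Without this mouse 2 genes were called in place of 5. Fos (-0.78), Fosb (-0.97) and Junb (-0.83) no longer passed the fold threshold, although their unadjusted p was still below 0.05, and the 2 genes still called were Egr2 (-1.60) and Egr4 (-1.01). The median Log2 FC of the 9 genes was -0.78 without it, and all 9 were still lower.

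**Figure D2:**
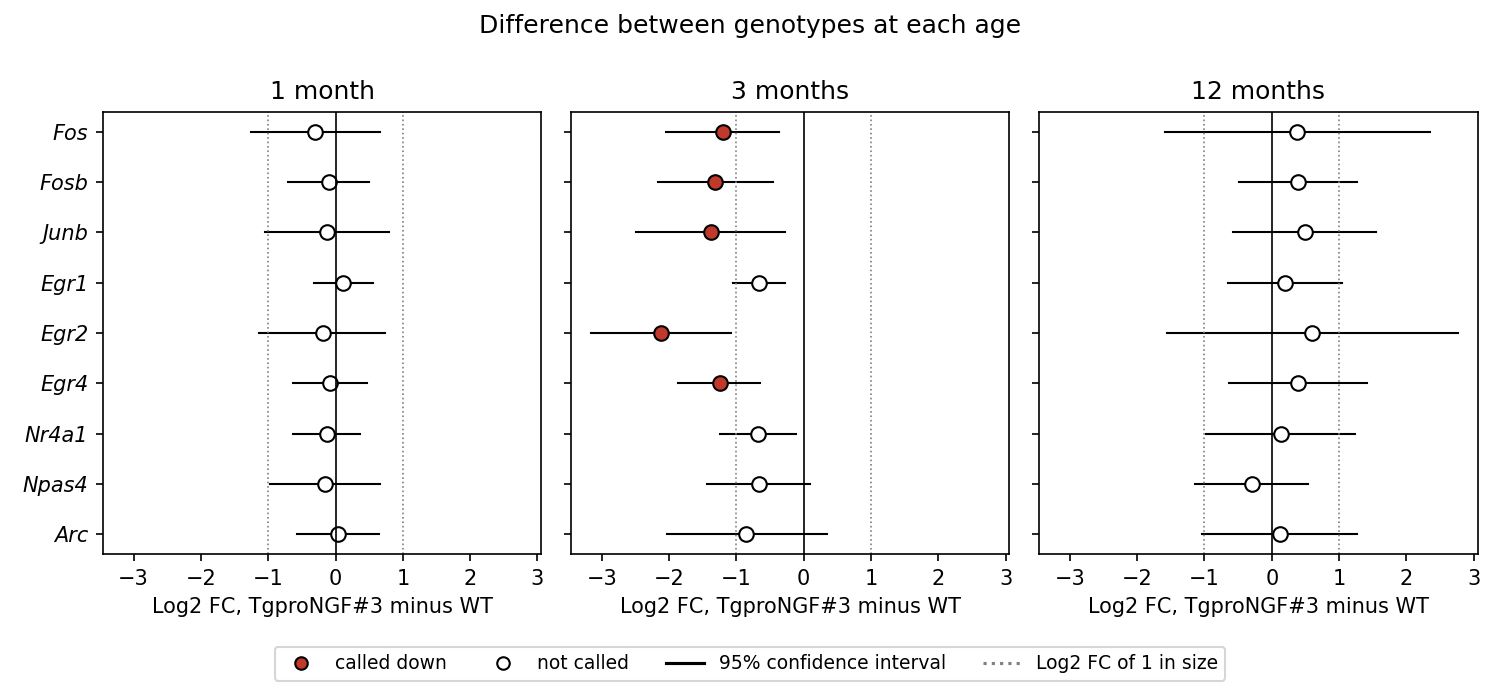
Log2 FC of the 9 genes (x axis, mean level in TgproNGF#3 minus that in WT) at each age. Points are the estimates, red where called down, lines their 95% confidence intervals, and dotted lines a Log2 FC of 1 in size; at 3 months all 9 points lie below 0, and at 12 months 8 of 9 lie above it with intervals that include 0.

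At 1 month the Log2 FC of the 10 genes lay between -0.30 and 0.34, with 7 lower and 3 higher in TgproNGF#3, and 0 of 10 were called. Of all 17268 genes tested at this age 32.8% were lower, and their median was 0.07. Of all 40536 probes, 0.328% were down-regulated and 0.242% up-regulated by this rule. In limma 0 of 10 had an unadjusted p below 0.05, against 3.47% of all probes, the smallest being 0.495, and the adjusted p was 1 throughout. Fos stood at -2.83, -1.35, -2.68 and -1.60 in TgproNGF#3 and at -1.60, -1.67, -1.12 and -2.86 in WT mice, so that each genotype held mice with high and low levels. Arc stood at 1.89, 3.07, 2.24 and 2.89 in TgproNGF#3 and at 2.51, 2.60, 2.67 and 2.17 in WT mice. The groups overlapped for every gene. The 95% confidence interval of the Log2 FC was -1.26 to 0.66 for Fos, -1.13 to 0.74 for Egr2 and -0.63 to 0.47 for Egr4. Whether the difference between genotypes changed with age is tested below.

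At 12 months 8 of 9 genes had a positive Log2 FC and Npas4 a negative one, between -0.30 and 0.60, and 0 of 9 were called. Of all 34064 probes 0.992% were called down-regulated and 0.311% up-regulated. In limma 0 of 9 had an unadjusted p below 0.05, against 9.05% of all probes, the smallest being 0.316. The TgproNGF#3 mice differed widely among themselves. Fos stood at -4.09, -1.34 and -0.67 in them and at -2.22, -1.77 and -3.27 in WT mice. Egr2 stood at -4.67, -1.38 and -1.16 in TgproNGF#3 and at -2.96, -2.12 and -3.93 in WT mice, and Arc at 1.20, 2.72 and 3.06 and at 2.36, 2.64 and 1.62. TgproNGF#3 replicate 1 lay below the WT mice in all 3 genes, and replicates 2 and 3 lay above them. Without replicate 1, when 2 TgproNGF#3 mice were compared with 3 WT mice, Egr2 (Log2 FC 1.73) and Fos (1.41) would have been called up-regulated and the median Log2 FC was 0.79 in place of 0.38. Without replicate 3 the median was -0.14, with Fos at -0.30, Arc and Nr4a1 at -0.25, Egr1 at -0.14 and Egr2 at -0.02, so that the direction at 12 months rested on single mice. With 3 mice a group, a test cannot give an exact permutation p below 0.1, and those of the 9 genes lay between 0.5 and 0.9.

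The WT mice of 3 months also differed from the other groups in spread. The SD of the 9 genes over mice had a median of 0.23 in WT and 0.838 in TgproNGF#3 at 3 months, of 0.506 and 0.554 at 1 month, and of 0.459 and 0.924 at 12 months. These are descriptions, since the spread of so few mice is itself poorly known.

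Egr3 (probe A_55_P2032412), the remaining Egr family member, was near the limit of detection. At 1 month it was measured at -6.93, -6.74 and -4.85 in 3 TgproNGF#3 mice and at -6.02, -6.54, -6.97 and -6.50 in WT mice, with a Log2 FC of 0.34 (SE 0.473, limma adjusted p = 1). At 3 months it was well above background in 0 of 4 TgproNGF#3 and 1 of 4 WT mice, at -6.23, and at 12 months in 2 of 3 TgproNGF#3 mice, at -6.40 and -6.77, and in 0 of 3 WT mice. It was therefore not tested at those ages, and no fold is given. With dim spots kept, its Log2 FC was -0.27 at 3 months and -0.15 at 12 months, not called at either age.

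Whether the difference between genotypes changed with age was tested as the difference between the Log2 FCs of a pair of ages in 1 fit. Between 12 and 3 months it was 2.72 for Egr2 (SE 1.06, limma adjusted p = 0.173), 1.71 for Fosb (SE 0.591, adjusted p = 0.124) and 1.64 for Egr4 (SE 0.532, adjusted p = 0.102). None of the 9 genes passed an adjusted p of 0.05, against 4.01% of all probes. Before adjustment 5 of 9, Fosb, Junb, Egr1, Egr2 and Egr4, had a p below 0.05, against 20% of all probes. Between 3 months and 1 month the smallest adjusted p was 0.152, for Egr4 (-1.17, SE 0.376), and 1.75% of all probes passed. Before adjustment 4 of 9, Fosb, Egr1, Egr2 and Egr4, had a p below 0.05, against 13.1% of all probes. Between 12 months and 1 month no member and 0% of all probes passed, the smallest adjusted p of a member being 0.987, and before adjustment it was 0 of 9 against 6.27%. After adjustment the Log2 FCs of 3 months were thus not shown to differ from those at the other ages, and such a comparison also compares slides, and between 12 months and the others also sexes.

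Over all 15756 genes tested at 3 months 56.2% were lower in TgproNGF#3 mice. Of 20 other early transcription factors tested, 17 were lower and 3 were called down-regulated, against 6.12% of all probes, and the median Log2 FC was -0.54. The 3 were Nfil3 (-1.21, SE 0.17, limma adjusted p = 0.00463), a repressor of the bZIP type, Maff (-1.20, SE 0.191, adjusted p = 0.00711), a small Maf protein, and Cebpd (-1.06, SE 0.237, adjusted p = 0.0275), a C/EBP factor. Of 21 early signalling genes tested, 16 were lower and 5 were called down-regulated, with a median of -0.50. They were Arl4d (-2.56, SE 0.402, adjusted p = 0.00684), a small GTPase, Sgk1 (-1.49, SE 0.195, adjusted p = 0.00362), a kinase raised by glucocorticoids, the MAP kinase phosphatases Dusp1 (-1.39, SE 0.451, adjusted p = 0.0875) and Dusp6 (-1.19, SE 0.194, adjusted p = 0.00799), and Sik1 (-1.34, SE 0.222, adjusted p = 0.00853), a salt-inducible kinase. Groups were apart, with TgproNGF#3 lower, for all 8 of these genes, against 14.6% of all probes. The 8 were picked by their calls, so this is not separate evidence. In the other direction Ier3 of the signalling list was higher in TgproNGF#3 mice (0.69, SE 0.154, adjusted p = 0.027), with groups apart, but below the fold threshold.

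Of 28 secreted and synaptic response genes tested at 3 months 16 were lower and 12 higher, a share near the 56.2% of all genes, with a median of -0.09. The unadjusted limma p was below 0.05 for 5 that were lower and 5 that were higher, against 27.2% of all probes, and the 2 called genes rose, against 0.643% of all probes called up-regulated. They were Kcnf1 (1.22, SE 0.31, limma adjusted p = 0.0424), a potassium channel subunit, and Sv2c (1.12, SE 0.327, adjusted p = 0.0701), a synaptic vesicle protein. Of 25 upstream regulators, such as Creb1 and Srf, 20 were lower and 5 higher and 0 were called. In limma 3 that were lower and 1 that was higher had an unadjusted p below 0.05, against 27.2% of all probes, and 2 had an adjusted p below 0.05, against 8.43%, the smallest p being that of Camk2b (-0.73, SE 0.176, adjusted p = 0.0354), a subunit of calcium/calmodulin-dependent kinase II, and their median was -0.23. At 1 and 12 months no gene of these 4 lists was called. At 12 months 19 of 21 other early transcription factors and 19 of 21 early signalling genes were higher in TgproNGF#3 mice, with medians of 0.19 and 0.33, while 40.1% of all 15712 genes were lower and their median was 0.06. Median scaling and quantile normalization moved the median of all probes at this age by 0.15. The gene with the smallest p was Nfil3 (Log2 FC 0.54) and Sgk1 (0.59) in these, Sst (0.82) among secreted and synaptic genes and Camk4 (0.70) among upstream regulators, with limma adjusted p-values between 0.549 and 0.557. At 1 month these genes were Atf3 (0.35), Spry4 (-0.48), Nptx2 (0.59) and Nab2 (0.25), with an adjusted p of 1.

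The values of other gene groups are given here, and their part in the result was not tested. All 12 glucocorticoid-induced genes were lower, with 1 called (Sgk1, above), against 6.12% of all probes, and a median of -0.58. In limma 8 of the 12 had an unadjusted p below 0.05, against 27.2% of all probes, and 3 an adjusted p below 0.05, against 8.43%. The log2 of their summed level was 6.25 to 6.48 in TgproNGF#3 and 6.72 to 7.33 in WT mice. All 9 heat shock genes tested were lower, with a median of -0.34 and 0 called. Of these 5 had an unadjusted and 2 an adjusted limma p below 0.05, with the smallest p for Dnajb1 (-0.65, SE 0.153, limma adjusted p = 0.0338), a co-chaperone. Sgk1, Errfi1 and Per1 of the glucocorticoid list also stand on the lists above. At 12 months all 12 glucocorticoid-induced genes were higher (median 0.26, 0 called), with the smallest p again for Sgk1, and 7 of 9 heat shock genes were higher, with the smallest p for Dnajb1 (0.30, limma adjusted p = 0.558). At 1 month 10 of the 12 and 7 of the 9 were lower, against 32.8% of all genes, with 0 called and the smallest p for Plin4 (-1.05) and Hspb1 (-0.61), both with an adjusted p of 1. At 3 months, of the 8 markers each, 7 pyramidal neuron genes were lower (summed level 4.47 to 4.91 in TgproNGF#3, 4.81 to 5.04 in WT), 6 granule neuron genes were lower (2.28 to 2.85 against 2.54 to 2.96) and 5 oligodendrocyte genes were higher (6.16 to 6.36 against 5.76 to 6.12), with 0 called in these 3 lists. The unadjusted limma p was below 0.05 for 2 pyramidal and 3 granule neuron genes, all lower, against 27.2% of all probes. It was so for 4 oligodendrocyte genes that were higher and 1 that was lower. The adjusted p was below 0.05 for 2 pyramidal, 1 granule neuron and 1 oligodendrocyte gene, the last being higher, against 8.43% of all probes. Of 8 astrocyte markers 7 were lower (6.26 to 6.51 against 6.49 to 7.06, median Log2 FC -0.26), and 12 of 12 leptomeningeal fibroblast markers were higher (2.79 to 3.57 against 2.59 to 3.25, median 0.36), of which 4 had an unadjusted limma p below 0.05, against 27.2% of all probes. All 8 choroid plexus markers were lower, with a median of -0.86. Their summed level was 6.71, 2.63, 7.07 and 5.67 in TgproNGF#3 mice and 6.20 to 6.81 in WT mice, so that replicate 2 stood apart, and this was not the mouse lowest in the early genes. None of the astrocyte, leptomeningeal and choroid plexus markers was called. All these markers were well above background on all 8 arrays. The endothelial gene Cdh5 (-2.07, SE 0.381, limma adjusted p = 0.0126) and the haemoglobin gene Hbb-b1 (-2.17, SE 0.175, adjusted p = 0.000654) were called down-regulated, each the only called gene of its marker list. Of the 10 endothelial and mural markers 5 were higher and 5 lower (median -0.05), and of the 4 blood markers tested 2 were higher and 2 lower (median -0.09). Of 8 interneuron markers 6 were higher, with a median of 0.20 and 0 called.

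At 12 months 11 of 12 leptomeningeal fibroblast markers were lower in TgproNGF#3 mice, with a median Log2 FC of -0.97, and 6 were called down-regulated, against 0.992% of all probes. The largest falls were those of the collagen genes Col3a1 (-1.80) and Col1a2 (-1.65), both with a limma adjusted p of 0.349. The summed level of the list was 2.75 to 3.49 in TgproNGF#3 and 3.08 to 3.62 in WT mice. All 8 pyramidal neuron markers were higher (median 0.26, summed level 4.92 to 5.04 against 4.56 to 4.89), with an unadjusted limma p below 0.05 for 2, as were all 8 interneuron markers (median 0.49, 5.64 to 5.99 against 5.05 to 5.75), with such a p for 3, against 9.05% of all probes, and none of these was called. Of 8 granule neuron markers 3 were higher and 5 lower, and C1ql2 (-1.05, limma adjusted p = 0.549), which encodes a secreted synaptic protein, was called down-regulated. All 8 choroid plexus markers were lower (median -1.08, summed level 3.11 to 7.06 against 3.29 to 7.60). So were 7 of 8 oligodendrocyte markers (median -0.16, 5.97 to 6.69 against 6.31 to 6.80), against 40.1% of all genes. In both lists 0 were called and 0 had an unadjusted limma p below 0.05. The part of these lists in the values of the members at 12 months was not tested.

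Single mice of the same genotype and age tended to be high or low in most of these genes together. The levels of the 9 genes measured on all arrays were compared across the 22 mice as deviations from the mean of their group. This removes differences in mean between genotypes, ages, slides and sexes, but not differences in spread. Groups with a wider spread, such as TgproNGF#3 mice of 3 and 12 months, thus weigh more in r. In all 36 pairs of genes Pearson's r was above 0, from 0.26 to 0.95 with a median of 0.81, and Spearman's rho ran from 0.13 to 0.92 with a median of 0.75. In a permutation test with 100000 shuffles within the groups the adjusted p over the 36 pairs was below 0.05 for 32 pairs by r and for 31 by rho. The same relation with other probes was weak: the r of a member with 28889 other probes had a median between 0.03 and 0.16.

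**Figure D3:**
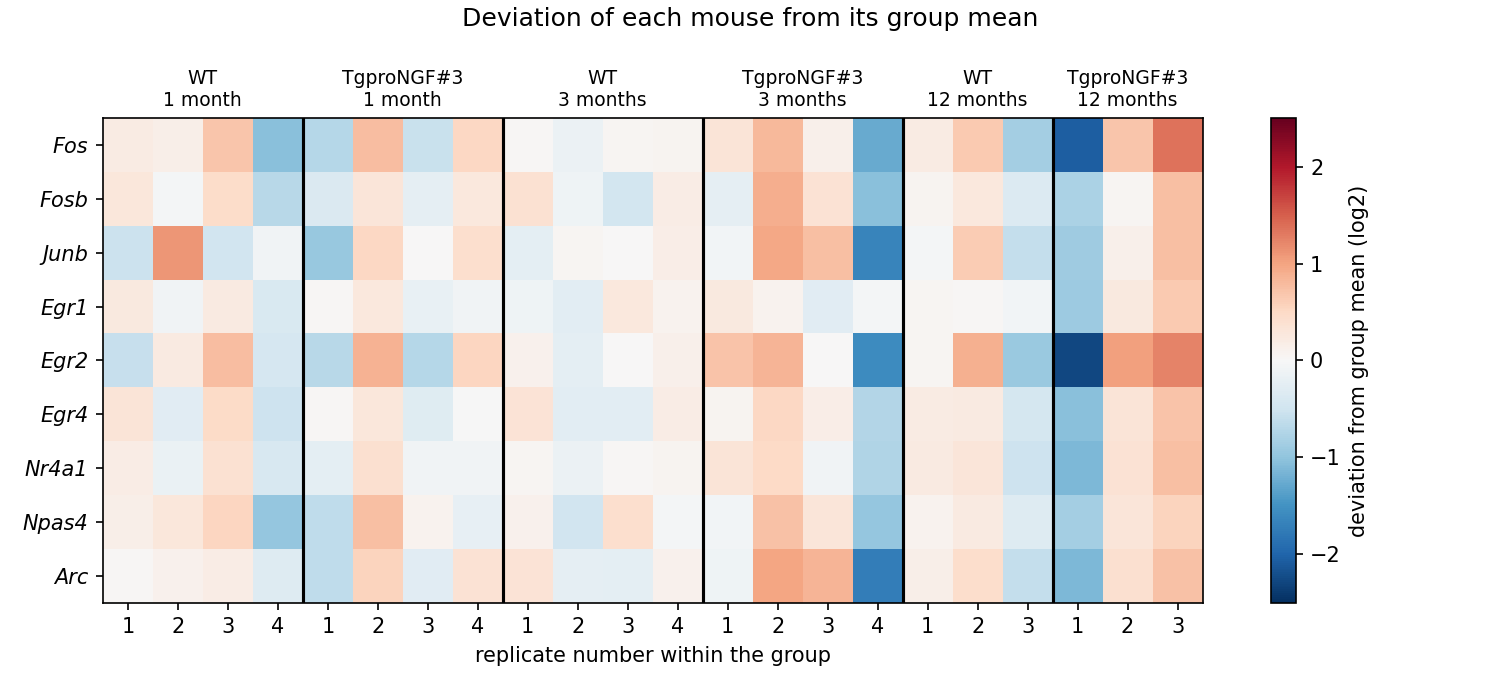
Deviation of each mouse from the mean of its group (colour, log2) for the 9 genes (rows) in the 22 mice (columns, by group and replicate number). Columns of 1 colour mark mice that are high or low in all genes, such as TgproNGF#3 replicate 4 of 3 months and replicate 1 of 12 months (blue).

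The closest pairs were Fos with Egr2 and Fos with Nr4a1, each with an r of 0.95. Their adjusted permutation p was 0.000154 for both, with rho of 0.92 and 0.91, and r was 0.91 in each pair without the 2 mice farthest from the median of Fos. Arc, the synaptic effector, followed Fosb with an r of 0.91 and a rho of 0.90 (adjusted permutation p = 0.000154 and 0.00012), and r was 0.87 without the 2 farthest mice. Egr1 and Junb followed the others least. Between them r was 0.26 and rho 0.13 (adjusted permutation p = 0.374 and 0.607), and r was 0.34 without the 2 farthest mice. The other 3 pairs that did not pass by r were Egr1 with Arc (r 0.44, adjusted permutation p = 0.153), Egr1 with Fosb (0.52, 0.0809) and Junb with Egr4 (0.50, 0.0746). Without the 2 farthest mice the r of the 36 pairs lay between 0.14 and 0.91, with a median of 0.72.

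**Figure D4:**
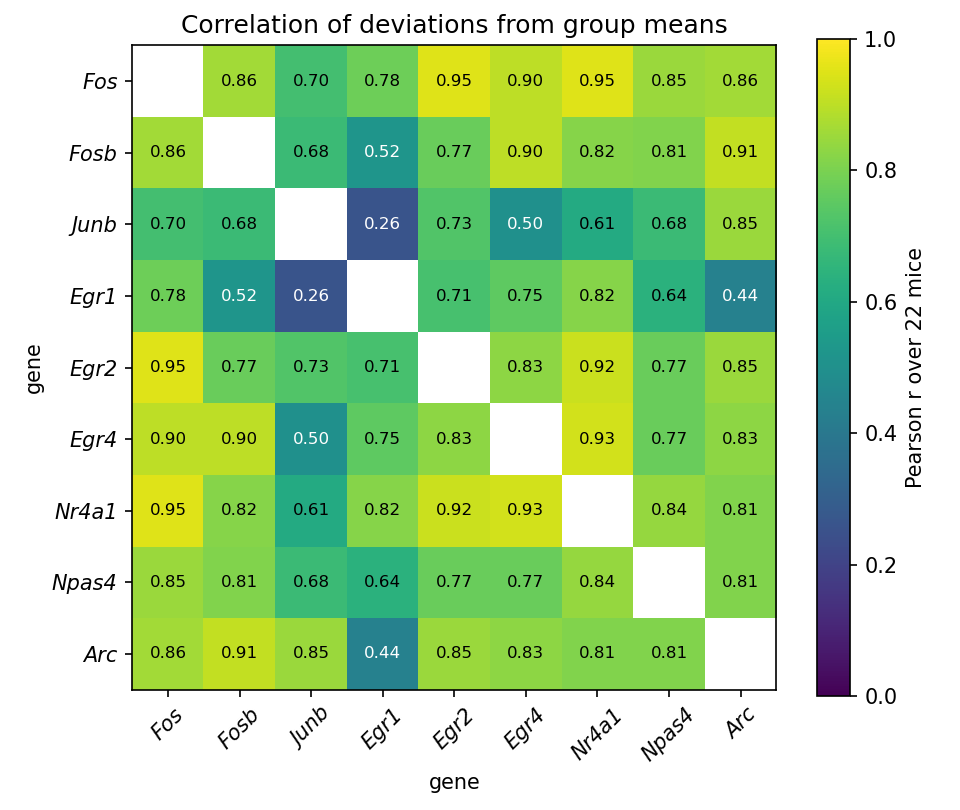
Pearson r between the deviations of each pair of the 9 genes (rows and columns) over 22 mice, on a colour scale from 0 to 1 with the value in each cell. Most cells lie above 0.6, and those of Egr1 with Junb (0.26) and Egr1 with Arc (0.44) are lowest.

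Within each age, and therefore within each slide and sex, the median r of the pairs was 0.73 at 1 month (8 mice), 0.83 at 3 months (8 mice) and 0.96 at 12 months (6 mice), and 33, 33 and 36 of the 36 pairs were above 0. At 12 months 2 group means are removed from 6 values, which leaves little room for independent movement. At 1 month the r of Junb was below 0 with Egr4 (-0.36), Egr1 (-0.21) and Nr4a1 (-0.01). At 3 months the r of Egr1 was below 0 with Fosb (-0.15), Arc (-0.10) and Junb (-0.02). Leaving out each of the 22 mice in turn, the median r over all pairs lay between 0.74 and 0.83, being lowest without TgproNGF#3 replicate 1 of 12 months.

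Averaged over the 9 genes, the deviation of a mouse was -1.23 in TgproNGF#3 replicate 1 of 12 months, -1.09 in TgproNGF#3 replicate 4 of 3 months, 0.84 in TgproNGF#3 replicate 3 of 12 months and 0.71 in TgproNGF#3 replicate 2 of 3 months. Among WT mice it ran from -0.54 (replicate 4 of 1 month) to 0.41 (replicate 2 of 12 months). In 9 of the 22 mice all 9 genes lay on the same side of the group mean, and in 13 at least 8 did. At 3 months the mean deviation correlated with the share of probes well above background on the array (r 0.80 over 8 mice) and less so over all 22 mice (0.20). It went with the 75th percentile of the array by -0.64 at 3 months and by -0.28 overall. At 12 months its r with the share of probes well above background was 0.06. These correlations, and those that follow with other genes, are given without a test, since all values of a mouse share 1 array and its scaling.

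Among all genes with a symbol that were measured on all arrays, those most like the mean deviation of the 9 genes over the 22 mice were Dusp1 (r 0.88), Ccn1 (0.87), Per1 (0.86), Trib1 (0.83) and Nab2 (0.82). Dusp1 is a phosphatase of MAP kinases, Ccn1 a secreted matrix protein, Per1 a clock gene, Trib1 a pseudokinase and Nab2 a co-repressor of Egr factors. All 5 stand on the lists of activity-related genes used above, which were chosen with earlier results of these data known. Dusp1 followed the members at each age, with r of 0.79, 0.94 and 0.96 at 1, 3 and 12 months, whereas Nab2 did less so at 1 month (0.36, 0.89 and 0.97). Among the genes least like the members were A930003A15Rik (r -0.81) and Aldh3b2 (-0.79), an aldehyde dehydrogenase. Both were opposite to the members at each age, with r of -0.54, -0.82 and -0.93 for A930003A15Rik and of -0.52, -0.80 and -0.89 for Aldh3b2 at 1, 3 and 12 months.

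By list, the median r with the mean deviation of the members was 0.43 for 19 other early transcription factors, of which 18 were above 0, and 0.30 for 19 early signalling genes, of which 16 were above 0. It was 0.16 for 25 upstream regulators, -0.01 for 26 secreted and synaptic response genes and 0.11 for the 28889 other probes, 67% of which were above 0. For 12 glucocorticoid-induced genes it was 0.14 and for 9 heat shock genes -0.05. Of 8 oligodendrocyte markers 1 was above 0, with a median of -0.36, and the summed level of that list went with the members by -0.08, 0.41 and -0.92 at 1, 3 and 12 months. The summed level of pyramidal neuron markers went with them by 0.01 over the 22 mice, but by -0.12, 0.58 and -0.44 at 1, 3 and 12 months, and that of granule neuron markers by -0.29, and by -0.58, -0.53 and 0.42 at these ages. That of leptomeningeal fibroblast markers, which label the membrane around the brain, went with them by 0.52, and by 0.53, 0.61 and 0.51. The part of these cell types in the movement of the members was not tested.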

How the data were processed

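Total RNA of single mouse hippocampi was labelled with Cy3 and hybridised to 1-colour Agilent arrays. The authors deposited the spot intensity that Agilent Feature Extraction 10.7.3.1 gives after background and spatial trend removal, and log2 values shifted to a common 75th percentile for probes well above background on all arrays. Here, spots that were controls, outliers or too close to background were dropped. Each array was then centred on its 75th percentile (log2), spots of the same probe were averaged, and genotypes were compared by age with limma 3.58.1 in R 4.3.3 (two-sided moderated test) wherever both groups had 2 or more values. Single genes were also compared by exact permutation. The procedure was tested on simulated data. The number of arrays limits the precision. All mice are separate samples in the labels.

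The 10 genes, the further lists and the tests were chosen with earlier results of these data known. Named were all members, from each list the called genes (if over 4, the 2 largest rises and falls) or else that with the smallest p, and the 5 most and 3 least alike genes. The result of 1 of the latter is not reported here. Dusp1, Dusp6, Sik1 and Ier3 were added after their values were seen, and of the marker lists only called genes are named. Replicate numbers paired the arrays of 1 month, which share an array row (r of deviations 0.511, 0.272, 0.191 and 0.208 over 36103 probes). With the replicate number as a block 0 members were called there, as without it. Alternatives were another scaling, background correction or filter, the authors' values, 1 fit of all arrays, blocks and leaving out each mouse. The normexp correction (offset 50) used median signals. Symbols came through RefSeq identifiers, which differ between the 2 grid versions of the files. Correlations and figures were made in Python 3.11.15 with numpy 2.4.6, SciPy 1.17.1 and matplotlib 3.10.9.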

Additional observations from a re-analysis of the deposited data

How the results depend on the processing

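At 3 months all 9 genes stayed lower under all 19 alternatives. Where an adjusted limma p below 0.05 replaced the call rule, 3 genes passed, Egr2 and Egr4 of the 5 called and Egr1, which was not called. Fos, Fosb and Junb did not pass. With 1 mouse left out the call rule gave between 2 genes (without TgproNGF#3 replicate 4) and 6 (without TgproNGF#3 replicate 2). Egr2 and Egr4 were called in every case. With the normexp correction Junb (-0.96) was no longer called and 4 genes were. At 12 months between 0 and 2 genes were called with 1 mouse left out (2 without TgproNGF#3 replicate 1), and the median Log2 FC of the 9 genes ranged from -0.14 to 0.79. The median r between members was 0.80 to 0.82 with median scaling, quantile normalization or the authors' log2 values. Several values that were not called changed sign, and were not called then either. Arc at 1 month was -0.03 with the percentile over all spots and -0.03 with the authors' log2 values. With 1 mouse left out the Log2 FC at 1 month ranged from -0.15 to 0.25 for Arc, from -0.02 to 0.19 for Egr1, from -0.48 to 0.06 for Egr2, from -0.32 to 0.71 for Egr3, from -0.25 to 0.08 for Egr4, from -0.33 to 0.05 for Fosb, from -0.30 to 0.24 for Junb and from -0.48 to 0.05 for Npas4. At 12 months it ranged from -0.25 to 0.68 for Arc, from -0.14 to 0.64 for Egr1, from -0.02 to 1.73 for Egr2, from -0.30 to 1.41 for Fos, from -0.58 to 0.13 for Npas4 and from -0.25 to 0.68 for Nr4a1. The cause was not tested. The replicate numbers did not pair the mice of 3 months (r of deviations -0.356 to -0.0234) or 12 months (-0.316 to 0.0503), and with the replicate number as a block 5 and 0 genes were called there, as without it. The scaling of the arrays moved the median Log2 FC of all probes by up to 0.13 at 3 months and 0.15 at 12 months, where the 9 genes had medians between 0.23 and 0.53. Of all called probes 57.6% at 1 month and 76.1% at 12 months were lower in TgproNGF#3, against 39.7% and 44.9% with quantile normalization, 83.3% at 1 month with normexp and 55.4% at 12 months with median scaling. The mean over all probes of a gene was not run, since each member has 1 probe. Signal over background limits Egr3, and the fold of Junb depends on the background correction (0.49 at 12 months, 0.23 with normexp).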
